A study of Homo sapiens with 8 samples.

Results

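The genes described here build the basement membrane and the surrounding extracellular matrix, and comprise 37 genes: 10 laminins and nidogens, 16 collagens, 8 glycoproteins and proteoglycans, and 3 crosslinking enzymes. They were matched by gene symbol among the 60554 gene rows of each count table. The list itself was drawn up with earlier results of these data known, so its shares of called genes are a description. All 37 were among the 20238 genes with enough counts to be tested.

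Bulk RNA-seq was made from 2 cell lines, DU145 and PC3, both derived from metastases of human prostate carcinoma. DU145 resistant and PC3 resistant cells were kept in medium with 10 nM docetaxel, a taxane that stabilises microtubules. DU145 sensitive and PC3 sensitive cells were kept with 0.1% DMSO, the solvent, and all 4 groups grew in RPMI with 10% serum and were detached with 0.05% trypsin EDTA. Each group had 2 libraries. For its single cell samples the study kept cells in medium without docetaxel before harvest, and the sources used here do not state whether this was also done for the bulk libraries. They also do not say that libraries of 1 group were grown as separate cultures, so each p-value reflects the spread between these libraries alone, and that spread may be technical. Each line gave 1 resistant variant.

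Total counts per library ranged from 31685148 to 43045127. Libraries of the same group were not copies of each other, since chi-square over degrees of freedom was 18.4 to 47.9. ABCB1, the drug efflux pump used to check the labels, had 1174 and 1049 CPM (counts scaled to the library total) in DU145 resistant libraries, against 1.67 and 1.61 in DU145 sensitive libraries. In PC3 it had 98.1 and 86.6 CPM in resistant libraries, against 2.09 and 3.38 in sensitive libraries. Markers of fibroblasts and stroma summed to at most 3.16 CPM those of smooth muscle and pericytes to at most 3.84 CPM and those of leukocytes to at most 1.05 CPM in any library, and KLK2 and KLK3, androgen responsive genes of prostate epithelium, had 0 counts in all. Endothelial markers summed to 13.9 and 25.7 CPM in PC3 resistant libraries, nearly all of it from PECAM1, against 6.66 and 7.54 CPM in PC3 sensitive libraries. The 5 epithelial markers summed to 249.5 and 396 CPM in DU145 resistant libraries, against 2558 and 4179 CPM in DU145 sensitive libraries, and to 973 and 1000 CPM in PC3 resistant libraries, against 758 and 849 CPM in PC3 sensitive libraries. In DU145, 4 of the 5 fell. The part of these markers in the changes below was not tested. In bulk samples, fewer cells that express a gene and less RNA per cell cannot be told apart.

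A basement membrane is a thin sheet of matrix on which epithelial cells rest. Laminins, which are trimers of an alpha, a beta and a gamma chain, form one polymer that binds cell surface receptors, and collagen IV forms a second network, while nidogens and the proteoglycan perlecan bridge both. Fibrillar collagens, collagen VI, fibronectin and fibrillin belong mainly to the interstitial matrix that stromal cells usually make. Lysyl oxidases and peroxidasin crosslink the collagens.

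The collagen IV genes lie in pairs that are transcribed away from each other, and because their levels are set side by side further on, the stretch between their starts is shown first. COL4A1 and COL4A2 start on chromosome 13 of GRCh38.p14 at 110307157 and 110307284 in RefSeq, with 126 bases between the starts. COL4A6 and COL4A5 start on chromosome X at 108439458 and 108439838, with 379 bases between them. For COL4A6 this is the RefSeq start nearer to COL4A5, and another has its window at 108438373 to 108438672. The whole stretch between COL4A1 and COL4A2 (chr13:110307158-110307283) and the 250 bases before COL4A5 (chrX:108439588-108439837) are given on the plus strand from RefSeq, with the letters CCAAT and GGGCGG, or their reverse complements, in capitals.
COL4A1/COL4A2: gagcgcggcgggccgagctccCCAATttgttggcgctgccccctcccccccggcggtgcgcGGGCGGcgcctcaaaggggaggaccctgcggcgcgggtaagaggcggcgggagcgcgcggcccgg
COL4A5: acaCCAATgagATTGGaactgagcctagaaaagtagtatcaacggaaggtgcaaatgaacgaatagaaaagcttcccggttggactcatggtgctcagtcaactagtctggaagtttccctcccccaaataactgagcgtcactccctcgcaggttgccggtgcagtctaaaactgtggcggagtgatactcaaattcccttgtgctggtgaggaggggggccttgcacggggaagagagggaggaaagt
The COL4A1/COL4A2 stretch was 80.2% G and C, with 1 CCAAT and 1 GGGCGG. The COL4A5 stretch was 51.2% G and C, with 2 CCAAT and no GGGCGG. Among all 35116 RefSeq windows of 300 bases around gene starts, 34.6% held CCAAT and 45.0% held GGGCGG on either strand, and the median G and C content was 58.7%. TATAAA, found in 11.5% of windows, was in none of the windows of these 4 genes. The COL4A6 window nearer to COL4A5 held CCAAT and no GGGCGG, and the other held GGGCGG and no CCAAT. A match of letters is a description and not a binding site.

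In DU145 resistant against sensitive cells, 11 of the 37 genes rose and 8 fell at an adjusted p under 0.05 (edgeR quasi-likelihood test, Benjamini-Hochberg over all genes tested). Over all genes tested the shares were 12.4% higher and 15.4% lower, and among the 37 they were 29.7% and 21.6%. The median log2 fold change was -0.01 over the 37 genes and 0.00 over all genes tested. In PC3, 9 rose and 5 fell, which is 24.3% and 13.5% of the 37, beside 18.6% and 17.0% over all genes tested, so these shares lay near the background. Their median log2 fold change in PC3 was 0.24, beside 0.01 over all genes tested. Without a filter on low counts, the number of genes higher in PC3 resistant cells was 15, and the share over all genes was not computed for that fit.

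The change differed between the lines for 17 of the 37 genes, which is 45.9%, beside 34.3% of all genes tested. These comparisons of lines used the same sensitive and resistant libraries as the tests within each line. Together the 37 genes took 0.582% and 0.532% of all counts in DU145 resistant libraries, against 0.409% and 0.440% in DU145 sensitive libraries. In PC3 they took 0.738% and 0.862% in resistant libraries, against 0.631% and 0.667% in sensitive libraries. The resistant libraries were above the sensitive ones in both lines. Such a sum follows the most abundant genes and is not a rise of the list as a whole, since 8 genes fell in DU145 and 5 in PC3. THBS1 averaged 451 CPM in DU145 resistant and 51.8 CPM in DU145 sensitive libraries. COL6A1 averaged 1314 CPM in PC3 resistant and 635 CPM in PC3 sensitive libraries.

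**Figure D1:**
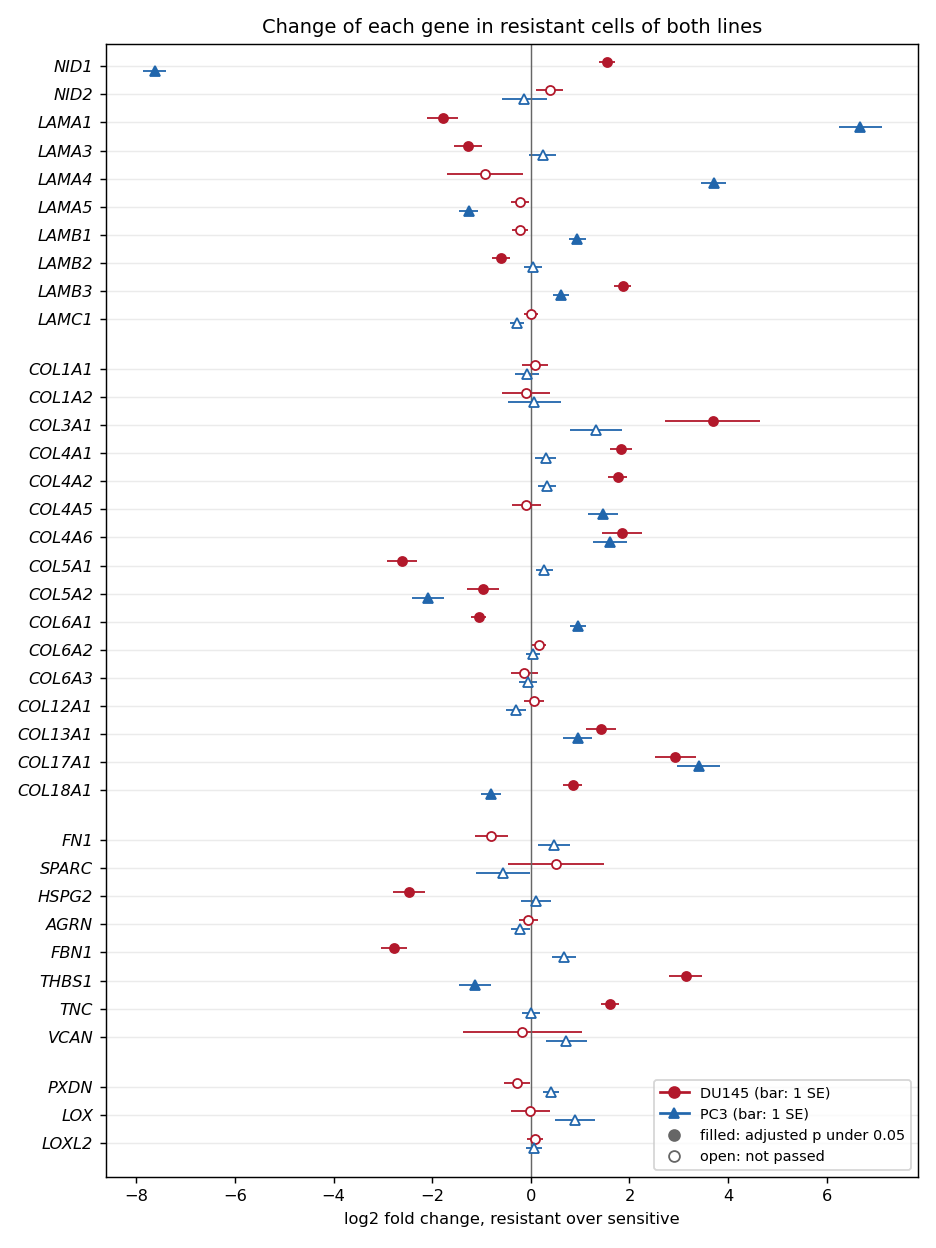
The log2 fold change of each of the 37 genes, resistant over sensitive, is drawn on the horizontal axis for DU145 (circles) and PC3 (triangles), with bars of 1 SE and filled symbols where the adjusted p is under 0.05. NID1 and LAMA1 lie farthest from 0 among the PC3 values, and on opposite sides in the 2 lines, at 1.54 and -7.63 for NID1 and at -1.79 and 6.68 for LAMA1 (DU145, then PC3).

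Among the 10 laminins and nidogens, 2 rose and 3 fell in DU145, and 4 rose and 2 fell in PC3. Those are 20.0% and 30.0% in DU145, beside 12.4% and 15.4% over all genes tested. In PC3 they are 40.0% and 20.0%, beside 18.6% and 17.0%. NID1 (ENSG00000116962) encodes nidogen 1, which links the laminin and collagen IV networks, and lies on chromosome 1 from 235975830 to 236065109 of GRCh38. In DU145 it had 101 and 94.5 CPM in resistant libraries, against 37.7 and 29.8 CPM in sensitive libraries. The PC3 levels were 0.372 and 0.311 CPM in resistant libraries, against 62.1 and 65.7 CPM in sensitive libraries. The gene was thus higher in both resistant libraries of DU145 and nearly silent in both resistant libraries of PC3. Its log2 fold change was 1.54 ± 0.16 (SE, n = 2 per group, adjusted p = 7.2e-05) in DU145 and -7.63 ± 0.24 (SE, adjusted p = 2.2e-08) in PC3, and the difference between the lines was -9.17 ± 0.29 (adjusted p = 7.3e-08). The PC3 resistant libraries held 16 and 12 NID1 counts. Those are 0.760% and 0.636% of its mean CPM over all libraries, close to the lowest share found for any of 2659 abundant genes in these libraries, 0.541% and 0.575%. With that share subtracted as reads possibly shared between libraries, the PC3 value was -9.79.

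NID2, nidogen 2, did not pass in either line. It ranged from 18.6 to 29.7 CPM in the DU145 libraries and from 0.233 to 0.581 CPM in the PC3 libraries. Its exons overlap those of RTRAF on the opposite strand over 1909 bases, 30.7% of NID2 exons, and RTRAF had 95716 counts over all libraries, against 3144 for NID2. Since the strand setting of the counting is not given, how reads in this overlap were assigned is not known. The PC3 libraries held 9 to 25 NID2 counts each, so few RTRAF reads can have been counted as NID2 in them.

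The laminin alpha chains, which carry the receptor binding domains, moved in different directions. LAMA1 (ENSG00000101680, chromosome 18, 6941742 to 7117797), a chain known mainly from embryonic basement membranes, had 28.4 and 13.7 CPM in DU145 resistant libraries, against 70.4 and 78.4 CPM in DU145 sensitive libraries. The PC3 values were 85.2 and 61.6 CPM in resistant libraries, against 0.521 and 0.821 CPM in sensitive libraries. The gene was lower in both DU145 resistant libraries and higher in both PC3 resistant libraries. The log2 fold change was -1.79 ± 0.31 (SE, adjusted p = 0.0019) in DU145 and 6.68 ± 0.43 (SE, adjusted p = 1.7e-06) in PC3, with a difference of 8.47 ± 0.53. Without DU145 resistant replicate 1 the DU145 value was -2.50, and with shared reads subtracted the PC3 value was 7.43.

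LAMA4, a chain of endothelial and mesenchymal basement membranes, was close to absent in DU145, with 2 and 2 counts in resistant libraries and 2 and 6 counts in sensitive libraries. Its levels in PC3 were 56.4 and 78.3 CPM in resistant libraries, against 5.01 and 4.61 CPM in sensitive libraries, a log2 fold change of 3.71 ± 0.25 (SE, adjusted p = 1.9e-06). Of the endothelial markers summed above, PECAM1 was also higher in PC3 resistant libraries. TEK and CDH5 did not pass there, and VWF had too few counts to be tested. Of 4 tested markers of fibroblasts and stroma, 2 rose and 1 fell in PC3 resistant libraries. Of 4 tested markers of smooth muscle and pericytes, 1 rose and 0 fell. The shares over all genes tested in PC3 were 18.6% higher and 17.0% lower. The part of these markers in this change was not tested.

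LAMA5, the most widespread alpha chain of adult epithelia, had 197 and 274 CPM in PC3 resistant libraries, against 494 and 558 CPM in PC3 sensitive libraries (log2 fold change -1.26 ± 0.19 SE, adjusted p = 0.00068). In DU145 the groups overlapped, with 239 and 315 CPM in resistant and 282 and 366 CPM in sensitive libraries. LAMA3, the alpha chain of laminin 332 in epithelial anchoring, had 39 and 89.6 CPM in DU145 resistant libraries, against 142 and 167 CPM in DU145 sensitive libraries. Its DU145 resistant libraries stood apart from each other, and the log2 fold change of -1.28 ± 0.28 (SE, adjusted p = 0.0071) was -1.90 without replicate 2 of that group. In PC3, LAMA3 had 227 and 289 CPM in resistant and 191 and 217 CPM in sensitive libraries and did not pass.

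Between genes, levels were compared per kb of exon, with all annotated exons of a gene merged into 1 length. That length was 18592 bases for LAMB1 and 4647 bases for LAMB3, for example. It can exceed the length of the transcript made, so shares and ratios between genes depend on this choice. LAMA5 gave 78.8% and 75.8% of the summed level per kb of LAMA1, LAMA3, LAMA4 and LAMA5 in DU145 resistant libraries, against 58.0% and 60.8% in DU145 sensitive libraries. In PC3 it gave 34.9% and 38.7% in resistant libraries, against 71.7% and 71.7% in sensitive libraries. The make-up of the alpha chains therefore moved towards LAMA5 in DU145 resistant libraries and away from it in PC3 resistant libraries, where LAMA3 gave 39.6% and 40.3% and LAMA4 gave 11.9% and 13.2%.

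**Figure D2:**
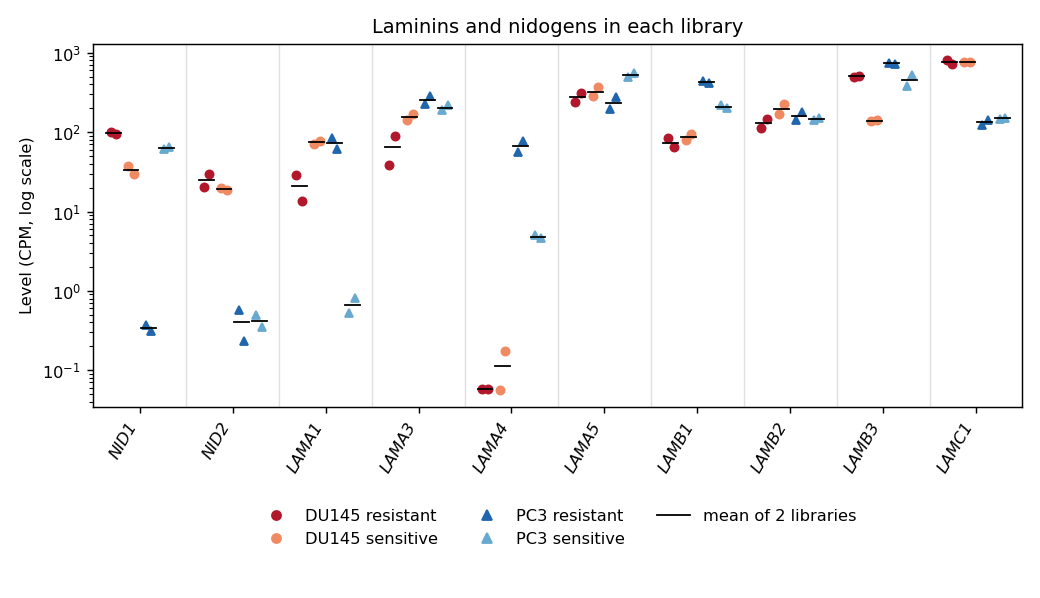
CPM of the 10 laminin and nidogen genes on a log axis, 1 point per library and a line at the mean of each group, with resistant beside sensitive libraries of each line. The NID1 points of PC3 resistant libraries sit at 0.372 and 0.311 CPM, and the LAMA1 points of PC3 sensitive libraries at 0.521 and 0.821 CPM, far below the other points of these genes.

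The beta chain LAMB3, the partner of LAMA3 in laminin 332, rose in both lines. It had 502 and 505 CPM in DU145 resistant libraries, against 137 and 143 CPM in DU145 sensitive libraries (log2 fold change 1.86 ± 0.17 SE, adjusted p = 2.7e-05). In PC3 it had 752 and 718 CPM in resistant libraries, against 376 and 524 CPM in sensitive libraries (0.61 ± 0.16 SE, adjusted p = 0.013). The rise was larger in DU145, by a difference of -1.25 ± 0.23 (PC3 minus DU145, adjusted p = 0.0019). The PC3 call was lost without PC3 sensitive replicate 1 (0.40) and without PC3 resistant replicate 1 (0.59).

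LAMB1, the beta chain of many laminins of early tissues, had 445 and 416 CPM in PC3 resistant libraries, against 218 and 202 CPM in PC3 sensitive libraries (log2 fold change 0.94 ± 0.17 SE, adjusted p = 0.0017). In DU145 it had 83.3 and 64.5 CPM in resistant and 80.2 and 94.2 CPM in sensitive libraries, and the groups overlapped. LAMB2 had 112 and 147 CPM in DU145 resistant libraries, against 168 and 229 CPM in DU145 sensitive libraries (-0.61 ± 0.18 SE, adjusted p = 0.028), and 141 to 180 CPM in all PC3 libraries. That call was lost without DU145 sensitive replicate 2 (-0.40), without DU145 resistant replicate 1 (-0.49) and with DU145 fitted alone (-0.59). LAMB3 gave 83.8% and 81.4% of the beta chain level per kb in DU145 resistant libraries, against 50.7% and 44.4% in DU145 sensitive libraries. LAMC1, the most common gamma chain, did not pass in either line, at 732 to 800 CPM in the DU145 libraries and 124 to 152 CPM in the PC3 libraries.

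**Figure D3:**
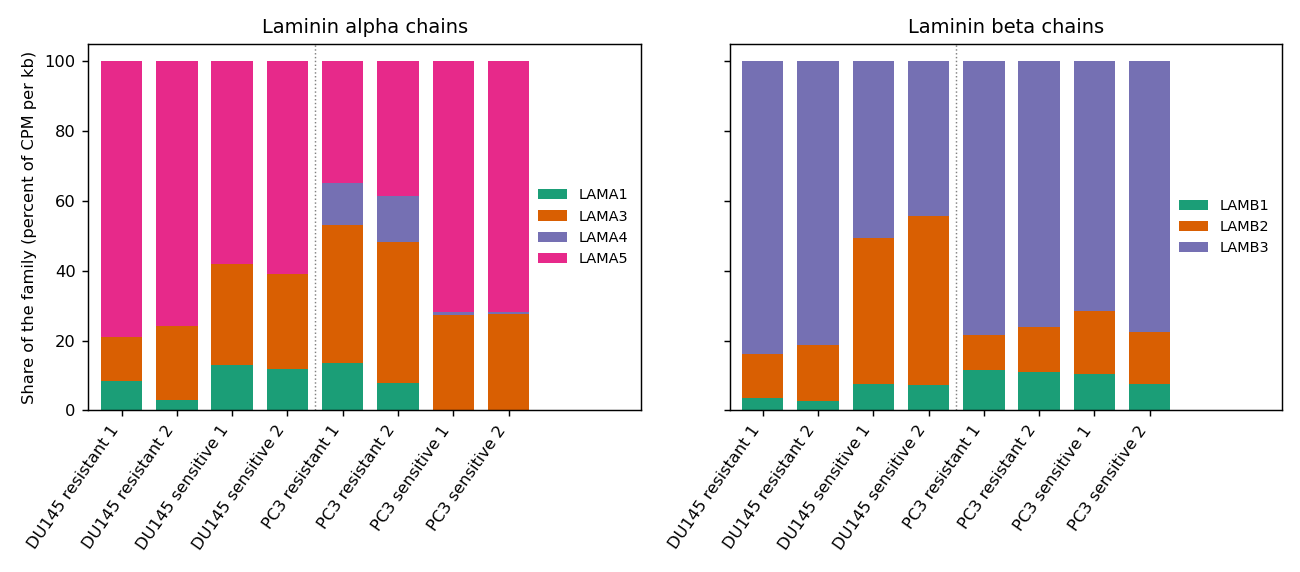
Bars give, for each library, the share of each laminin alpha chain (left) and beta chain (right) in the summed CPM per kb of exon of its family. LAMA5 has the largest share in 6 of 8 libraries and falls to 34.9% and 38.7% in PC3 resistant libraries, and LAMB3 is lowest in DU145 sensitive libraries, at 50.7% and 44.4%.

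Of the 16 collagens, 7 rose and 3 fell in DU145, and 5 rose and 2 fell in PC3. The DU145 shares are 43.8% and 18.8%, beside 12.4% and 15.4% over all genes tested. The PC3 shares are 31.2% and 12.5%, beside 18.6% and 17.0%. The collagen IV chains come first, by the pairs shown above. COL4A1 (ENSG00000187498), which with COL4A2 makes the collagen IV of nearly every basement membrane, had 579 and 371 CPM in DU145 resistant libraries, against 146 and 125 CPM in DU145 sensitive libraries. COL4A2 (ENSG00000134871) had 699 and 534 CPM in DU145 resistant libraries, against 192 and 175 CPM in DU145 sensitive libraries. Both rose, with log2 fold changes of 1.83 ± 0.22 (SE, adjusted p = 0.0002) and 1.76 ± 0.19 (SE, adjusted p = 9.7e-05).

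In PC3, neither gene of this pair passed. COL4A1 had 121 and 129 CPM in PC3 resistant libraries, against 100 and 89 CPM in PC3 sensitive libraries, and COL4A2 had 211 and 259 CPM, against 185 and 163 CPM. The difference between the lines passed for both genes, at -1.53 ± 0.31 (adjusted p = 0.0032) for COL4A1 and -1.43 ± 0.26 (adjusted p = 0.002) for COL4A2. The ratio of COL4A1 to COL4A2 per kb was 1.09 and 0.912 in DU145 resistant libraries, against 0.996 and 0.941 in DU145 sensitive libraries. In PC3 it was 0.754 and 0.653 in resistant libraries, against 0.711 and 0.716 in sensitive libraries. The ratios of resistant and sensitive libraries overlapped in both lines.

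In the second pair, COL4A6 passed in both lines and COL4A5 in PC3. COL4A6, a chain of epithelial basement membranes with a narrow distribution, had 3.97 and 4.67 CPM in DU145 resistant libraries, against 0.918 and 1.5 CPM in DU145 sensitive libraries (log2 fold change 1.85 ± 0.41 SE, adjusted p = 0.0067). The PC3 levels were 34.2 and 69.3 CPM in resistant libraries, against 11.8 and 20 CPM in sensitive libraries (1.61 ± 0.34 SE, adjusted p = 0.0042). It rose in both lines, and its difference between them did not pass.

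COL4A5, whose product assembles with that of COL4A6, had 52.3 and 45.4 CPM in DU145 resistant and 57.5 and 47.3 CPM in DU145 sensitive libraries, which overlapped. The PC3 values were 70.9 and 158 CPM in resistant libraries, against 35.4 and 42.5 CPM in sensitive libraries (1.46 ± 0.31 SE, adjusted p = 0.004). PC3 resistant replicate 2 was the higher library for both genes, and without it the PC3 log2 fold changes were 0.76 for COL4A5 and 1.01 for COL4A6, both still past the threshold. The ratio of COL4A5 to COL4A6 per kb was 10.3 and 7.61 in DU145 resistant libraries, against 48.9 and 24.7 in DU145 sensitive libraries. In PC3 it was 1.62 and 1.79 in resistant libraries, against 2.35 and 1.66 in sensitive libraries.

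COL4A3 and COL4A4, the third pair of collagen IV genes and not among the 37, fell in DU145, with log2 fold changes of -4.68 (adjusted p = 5.9e-05) and -3.16 (adjusted p = 1.1e-05). In PC3, COL4A4 had 1.14 and 0.700 CPM (49 and 27 counts) in resistant libraries, against 0.0579 and 0.126 CPM (2 and 4 counts) in sensitive libraries, and rose by a log2 fold change of 3.20 (adjusted p = 0.0004), while COL4A3 did not pass. The difference between the lines was 6.36 for COL4A4 (adjusted p = 7.3e-06) and 3.97 for COL4A3 (adjusted p = 0.0095). All 4 collagen IV genes of the list together had 80.6 and 57.3 CPM per kb in DU145 resistant libraries, against 24.8 and 21.8 in DU145 sensitive libraries. In PC3 the sum was 28.9 and 43 in resistant libraries, against 20.7 and 20.3 in sensitive libraries.

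Collagen VI forms beaded filaments from 3 chains, and its genes behaved unlike each other. COL6A1 had 37.2 and 41 CPM in DU145 resistant libraries, against 79.5 and 84.4 CPM in DU145 sensitive libraries (log2 fold change -1.06 ± 0.16 SE, adjusted p = 0.00092). Its levels in PC3 were 1115 and 1513 CPM in resistant libraries, against 631 and 639 CPM in sensitive libraries (0.95 ± 0.16 SE, adjusted p = 0.0012). COL6A2, its neighbour on chromosome 21, did not pass in either line and ranged from 75.3 to 92.2 CPM in DU145 and from 599.8 to 742 CPM in PC3.

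The ratio of COL6A1 to COL6A2 per kb was accordingly 0.433 and 0.428 in DU145 resistant libraries, against 1.02 and 0.991 in DU145 sensitive libraries. In PC3 it was 1.75 and 1.97 in resistant libraries, against 1.01 and 0.975 in sensitive libraries. By this measure the sensitive cells of both lines had near equal levels of the 2 chains, and the resistant cells departed from that in opposite directions. COL6A3, the third chain, had 420 to 577 CPM in PC3 and 1.14 to 1.34 CPM in DU145 and did not pass in either line. The DU145 values were 0.460% to 0.539% of its mean over all libraries, where the lowest share found for any of the 2659 abundant genes was 0.277% to 0.466% in these libraries.

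Collagen V regulates the diameter of collagen fibrils. COL5A2 had 13.6 and 7.92 CPM in DU145 resistant libraries, against 24.4 and 18.3 CPM in DU145 sensitive libraries, and 32.5 and 59.6 CPM in PC3 resistant libraries, against 191 and 173 CPM in PC3 sensitive libraries. It was the 1 gene that fell in both lines, with log2 fold changes of -0.97 ± 0.32 (SE, adjusted p = 0.045) and -2.08 ± 0.32 (SE, adjusted p = 0.00062). The DU145 call was also not past an adjusted p of 0.01 or a 2-fold limit, and it was lost in 7 other fits, among them RLE scaling (-0.96), DU145 fitted alone (-0.95) and the omission of DU145 sensitive replicate 1 (-0.70), DU145 sensitive replicate 2 (-1.18) or DU145 resistant replicate 2 (-0.57). It was also lost without PC3 sensitive replicate 1 (-0.97) or 2 (-0.97). COL5A1 had 0.234 and 0.259 CPM in DU145 resistant libraries, against 1.20 and 1.87 CPM in DU145 sensitive libraries (-2.61 ± 0.31 SE, adjusted p = 0.00017, and -3.24 with shared reads subtracted). In PC3 it had 61.6 and 62.4 CPM in resistant and 49.6 and 46.3 CPM in sensitive libraries and did not pass.

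Of the interstitial collagens I and III, levels were low in both lines. COL1A1 had 4.23 to 5.98 CPM in DU145 and 21.8 to 31.8 CPM in PC3, COL1A2 at most 0.964 CPM, and neither passed in either line. COL3A1, the main chain of reticular fibres, had 11 and 17 counts in DU145 resistant libraries, against 2 and 0 counts in DU145 sensitive libraries. The call (adjusted p = 0.015) rested on few counts: the ratio of the summed counts, scaled to library size, was 14.4 with an exact 95% interval of 3.62 to 124 that covers counting error only. Omission of DU145 sensitive replicate 2 ended it (adjusted p = 0.092). In PC3, COL3A1 had 1.09 and 2.57 CPM in resistant and 0.579 and 0.789 CPM in sensitive libraries.

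Both membrane spanning collagens rose in both lines. COL17A1 (ENSG00000065618), the hemidesmosome collagen that ties basal epithelial cells to the basement membrane, had 17.7 and 13.9 CPM in DU145 resistant libraries, against 2.42 and 1.75 CPM in DU145 sensitive libraries. The PC3 levels were 7.74 and 13.3 CPM in resistant libraries, against 0.521 and 1.36 CPM in sensitive libraries. The log2 fold changes were 2.93 ± 0.41 (SE, adjusted p = 0.00048) in DU145 and 3.40 ± 0.44 (SE, adjusted p = 0.00021) in PC3, and without PC3 sensitive replicate 2 the PC3 value was 4.21. Of the 4 genes that rose in both lines, COL17A1 had the largest change in each.

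COL13A1, a transmembrane collagen of cell adhesion sites, had 24.7 and 30 CPM in DU145 resistant libraries, against 7.49 and 13.1 CPM in DU145 sensitive libraries (1.42 ± 0.31 SE, adjusted p = 0.0062). The PC3 values were 256 and 480 CPM in resistant libraries, against 197 and 159 CPM in sensitive libraries (0.95 ± 0.29 SE, adjusted p = 0.026). The PC3 call was lost without PC3 resistant replicate 2 (0.42) and without PC3 sensitive replicate 2 (0.79).

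COL18A1, a basement membrane collagen whose end fragment is endostatin, moved in opposite directions. It had 484 and 429 CPM in DU145 resistant libraries, against 268 and 244 CPM in DU145 sensitive libraries (0.85 ± 0.19 SE, adjusted p = 0.0086). Its levels in PC3 were 53.3 and 62 CPM in resistant libraries, against 111 and 76.6 CPM in sensitive libraries (-0.81 ± 0.20 SE, adjusted p = 0.0088). No group overlapped the other, but each call was lost without 1 of 2 libraries: in DU145 without sensitive replicate 2 (0.75) or resistant replicate 1 (0.69), and in PC3 without sensitive replicate 1 (-0.49) or resistant replicate 1 (-0.69). The difference between the lines was -1.65 ± 0.28 (adjusted p = 0.0011). On the opposite strand, exons of SLC19A1 overlap 18.5% of the COL18A1 exons. SLC19A1 had 18096 counts over all libraries, against 60513 for COL18A1, of which each PC3 library held 2296 to 3848. How reads in this overlap were assigned is not known, and their part in the COL18A1 changes was not tested. COL12A1, a fibril associated collagen, had 129 to 222 CPM over all libraries and did not pass in either line.

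**Figure D4:**
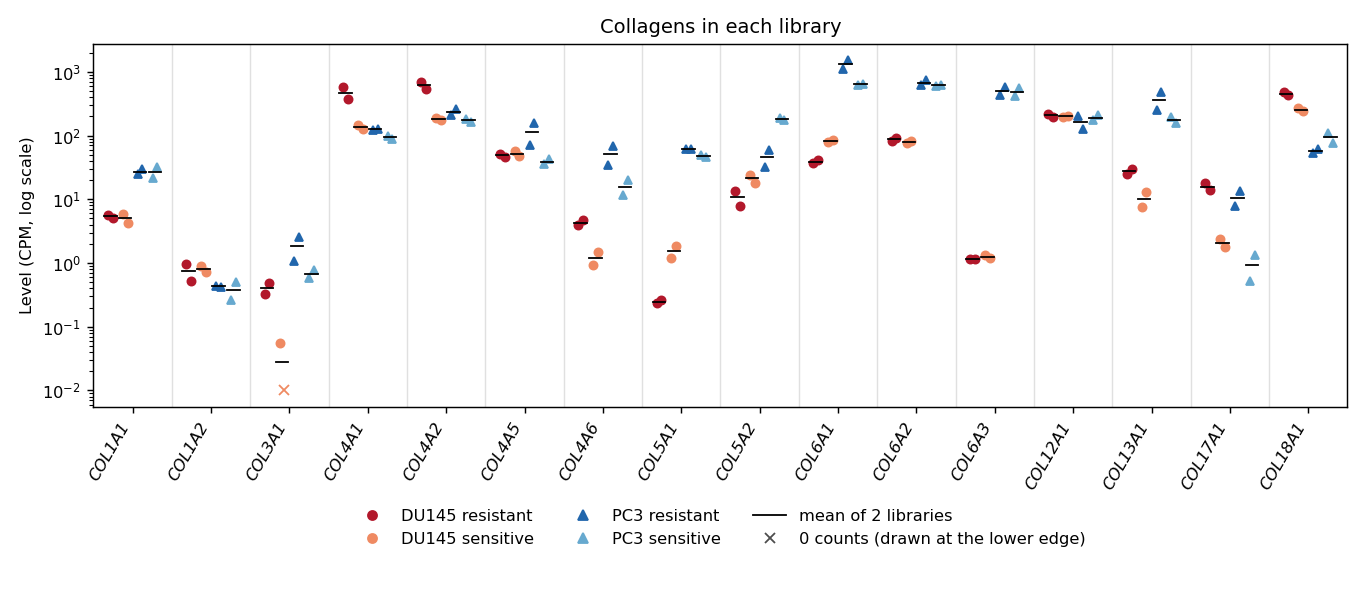
CPM of the 16 collagen genes on a log axis, 1 point per library and a line at the mean of each group, with a cross for the DU145 sensitive library that held 0 counts of COL3A1. The COL6A1 points of PC3 resistant libraries, 1115 and 1513 CPM, are the highest, and the points of COL6A3 lie at 1.14 to 1.34 CPM in DU145 and at 420 to 577 CPM in PC3.

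Of the 8 glycoproteins and proteoglycans, 2 rose and 2 fell in DU145, whereas 0 rose and 1 fell in PC3. The DU145 shares are 25.0% and 25.0%, beside 12.4% and 15.4% over all genes tested. The PC3 shares are 0% and 12.5%, beside 18.6% and 17.0%. THBS1 (ENSG00000137801, chromosome 15, 39581079 to 39599466) encodes thrombospondin 1, a matricellular protein that activates latent TGF-beta and inhibits angiogenesis. It had 531 and 371 CPM in DU145 resistant libraries, against 49 and 54.5 CPM in DU145 sensitive libraries (3.14 ± 0.34 SE, adjusted p = 9.7e-05). In PC3 it had 156 and 67.8 CPM in resistant libraries, against 235 and 221 CPM in sensitive libraries (-1.13 ± 0.32 SE, adjusted p = 0.018). The DU145 change was the largest rise of a gene in this group, and the PC3 call was lost without PC3 sensitive replicate 1 (-1.07) or PC3 resistant replicate 2 (-0.66), while it was -1.84 without PC3 resistant replicate 1.

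TNC, tenascin C, a glycoprotein of remodelled and tumour matrix, had 74.5 and 105 CPM in DU145 resistant libraries, against 28.2 and 30.9 CPM in DU145 sensitive libraries (1.61 ± 0.18 SE, adjusted p = 0.00014). The PC3 levels were 337 and 266 CPM in resistant and 246 and 315 CPM in sensitive libraries, and the groups overlapped. The difference between the lines was -1.60 ± 0.25 (adjusted p = 0.00086).

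FBN1 and HSPG2 fell in DU145. FBN1 encodes fibrillin 1, the core of microfibrils, and had 17.5 and 22.6 CPM in DU145 resistant libraries, against 134 and 139 CPM in DU145 sensitive libraries (-2.77 ± 0.26 SE, adjusted p = 3.6e-05). HSPG2, perlecan, the main heparan sulfate proteoglycan of basement membranes, had 24 and 36.9 CPM in DU145 resistant libraries, against 119 and 219 CPM in DU145 sensitive libraries (-2.47 ± 0.32 SE, adjusted p = 0.00029). The groups of both genes lay well apart in DU145.

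In PC3, FBN1 had 20 and 37.3 CPM in resistant libraries, against 17.9 and 15.6 CPM in sensitive libraries (0.67 ± 0.25 SE, adjusted p = 0.056). This rise lay at the threshold. It passed with DESeq2 (0.68), without a low count filter (0.70), with 1 CPM in 4 libraries (0.72) and with the replicate block (0.63). Omission of 1 library at a time gave values from 0.15 to 1.06. HSPG2 had 63.7 and 109 CPM in PC3 resistant and 67.3 and 82.5 CPM in PC3 sensitive libraries, which overlapped. For both genes the difference between the lines passed, at 3.44 ± 0.36 (adjusted p = 5.4e-05) for FBN1 and 2.57 ± 0.43 (adjusted p = 0.0012) for HSPG2.

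FN1, fibronectin, did not pass in either line, at -0.80 ± 0.34 (SE, adjusted p = 0.11) in DU145 and 0.47 ± 0.32 (SE, adjusted p = 0.29) in PC3. In DU145 it passed without DU145 resistant replicate 1 (-1.46) and without a low count filter (-0.79), and in PC3 without that filter (0.50). Its difference between the lines, 1.27 ± 0.47 (adjusted p = 0.059), passed with DESeq2 (1.26), without the filter (1.28), with the replicate block (1.30), without DU145 resistant replicate 1 (1.93) and without PC3 resistant replicate 1 (1.63). It had 15 and 7.52 CPM in DU145 resistant and 22.6 and 17.1 CPM in DU145 sensitive libraries, and 304 and 542 CPM in PC3 resistant and 281 and 289 CPM in PC3 sensitive libraries. AGRN, agrin, the other large heparan sulfate proteoglycan, had 353 to 515 CPM in all 8 libraries. SPARC, a collagen binding protein, had at most 0.49 CPM in DU145 and 3.02 to 12.6 CPM in PC3. VCAN, the proteoglycan versican, had at most 0.173 CPM in DU145 and 10.1 to 34.9 CPM in PC3. None of these 3 passed in either line.

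**Figure D5:**
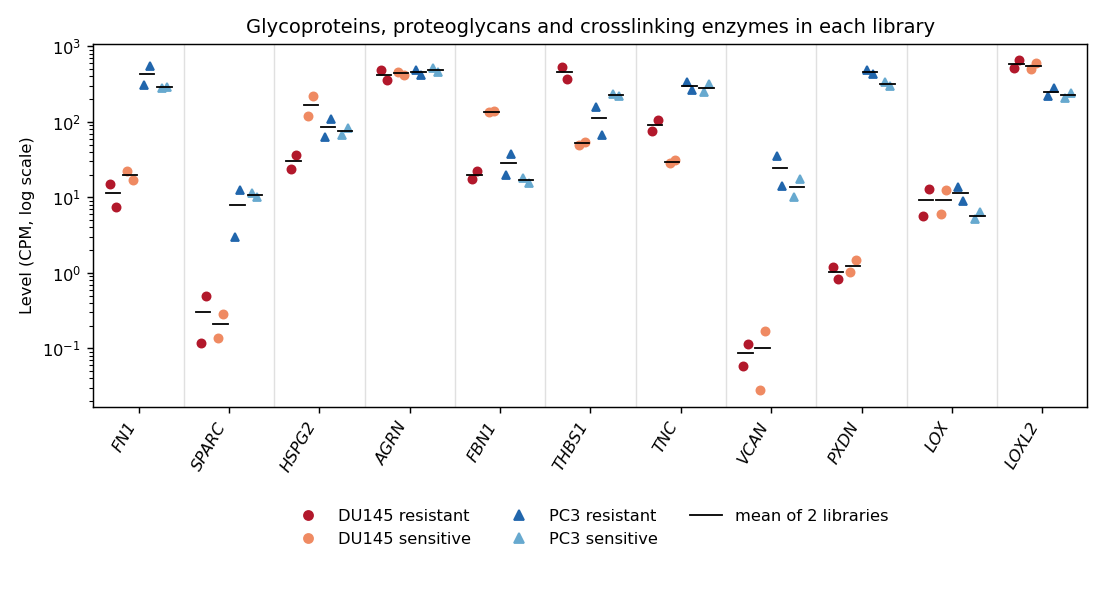
CPM of the 8 glycoprotein and proteoglycan genes and the 3 crosslinking enzymes on a log axis, 1 point per library and a line at the mean of each group. The THBS1 points of DU145 resistant libraries lie at 531 and 371 CPM, above the DU145 sensitive points at 49 and 54.5 CPM, whereas the LOXL2 points of resistant and sensitive libraries overlap in each line.

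The 3 crosslinking enzymes passed in neither line. LOXL2, a lysyl oxidase that also crosslinks collagen IV, was abundant throughout, with 513 and 649 CPM in DU145 resistant and 497 and 606 CPM in DU145 sensitive libraries, and with 222 and 276 CPM in PC3 resistant and 209 and 238 CPM in PC3 sensitive libraries. LOX had 5.13 to 13.8 CPM over all libraries. PXDN, the peroxidase that forms sulfilimine bonds in collagen IV, had 480 and 428 CPM in PC3 resistant libraries, against 337 and 301 CPM in PC3 sensitive libraries (0.41 ± 0.17 SE, adjusted p = 0.084). In DU145 it had 0.835 to 1.47 CPM, which is 0.431% to 0.756% of its mean over all libraries, where the lowest share found for an abundant gene was 0.277% to 0.466% in the DU145 libraries.

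Set side by side, 23 of the 37 genes passed in at least 1 line. The matching shares over all genes tested were not computed for this crossing, so its counts are a description. Within each line, 27.8% (DU145) and 35.6% (PC3) of all genes tested passed, beside 51.4% and 37.8% of the 37. COL13A1, COL17A1, COL4A6 and LAMB3 rose in both lines and COL5A2 fell in both. COL18A1, NID1 and THBS1 rose in DU145 and fell in PC3, and COL6A1 and LAMA1 fell in DU145 and rose in PC3. For these 5 genes the difference between the lines passed. A further 9 passed in DU145 and not in PC3, 4 passed in PC3 and not in DU145, and 14 passed in neither.

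The sensitive cells of the lines also differed from each other. In PC3 sensitive against DU145 sensitive cells, 20 of the 37 genes were higher in PC3 and 7 lower, which is 54.1% and 18.9%, beside 28.6% and 29.2% of all genes tested. COL6A3, with a log2 fold change of 8.66 ± 0.26 (SE, adjusted p = 3.5e-09), and PXDN, with 8.06 ± 0.24 (adjusted p = 3.5e-09), were the furthest above DU145. With shared reads subtracted these values were 11.52 and 9.70. LAMA1, at -6.73 ± 0.43 (adjusted p = 4.2e-07), and NID2, at -5.43 ± 0.37 (adjusted p = 6.6e-07), were the furthest below. By group, 9 of 16 collagens and 5 of 8 glycoproteins and proteoglycans were higher in PC3 sensitive cells.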

How the data were processed

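The authors deposited raw read counts per gene, 1 file for each of 8 bulk RNA-seq libraries. Per the labels, total RNA was made into libraries with a SMART-seq kit and reads were aligned with Bowtie to hg38. The sources used here name no counter, annotation or strand setting. Reads had no molecular identifiers, so counting intervals cover counting error only.

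Members were matched by symbol, and coordinates and exon lengths came from GENCODE 44, with all exons of a gene merged. Genes were filtered with filterByExpr, scaled by TMM (factors 0.951 to 1.038), and all libraries entered 1 model with a term for each group, tested by the quasi-likelihood method of edgeR 4.0.16 in R 4.3.3. Contrasts were resistant minus sensitive in each line, the PC3 change minus the DU145 change, and PC3 sensitive minus DU145 sensitive, with Benjamini-Hochberg adjustment over 20238 genes and a threshold of 0.05. SE was taken as the size of the log2 fold change over root F. CPM are unscaled. Values in every library are given for genes that passed in a line and averaged 8 CPM or more in a group.

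Members and lists were chosen with earlier results of these data known. Alternatives were DESeq2 1.42.0, RLE scaling, no low count filter, 1 CPM in 4 libraries, 1 line alone, a replicate block, each library left out, an adjusted p under 0.01, a 2-fold limit and subtraction of shared reads, estimated per library from genes averaging 100 CPM or more, as the smallest fraction of a gene's mean seen there. Steps were tested on simulated data.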

Additional observations from a re-analysis of the deposited data

Results flagged for a closer look

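For 17 genes the change in resistant cells differed between PC3 and DU145 by the test of the difference itself (edgeR quasi-likelihood test, adjusted p under 0.05, PC3 change minus DU145 change on the log2 scale, 2 libraries per group), where 34.3% of all genes tested did so. Positive differences were found for LAMA1 (8.47), LAMA4 (4.62), FBN1 (3.44), COL5A1 (2.88), HSPG2 (2.57), COL6A1 (2.01), COL4A5 (1.55), LAMA3 (1.52) and LAMB1 (1.16). Negative differences were found for NID1 (-9.17), THBS1 (-4.27), COL18A1 (-1.65), TNC (-1.60), COL4A1 (-1.53), COL4A2 (-1.43), LAMB3 (-1.25) and LAMA5 (-1.04). The LAMA4 value rests on 12 counts in the 4 DU145 libraries, and it was 3.67 (adjusted p = 0.063) without DU145 sensitive replicate 2 and 7.46 with shared reads subtracted. The COL4A5 difference was lost without DU145 sensitive replicate 1 (1.36) or PC3 sensitive replicate 1 (1.44), and was 0.85 without PC3 resistant replicate 2. Other values that moved by over 1.5 times without 1 library were LAMA1 (9.18 without DU145 resistant replicate 1), LAMA3 (2.14 without DU145 resistant replicate 2) and THBS1 (-4.98 without PC3 resistant replicate 1). With shared reads subtracted, NID1 was -11.34, LAMA1 9.23 and COL5A1 3.51.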

How the results depend on the processing

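The number of genes higher in PC3 resistant cells was 9, 15 without a low count filter and 5 with a 2-fold limit, and the number lower was 5, with 3 to 5 when 1 library at a time was left out (3 without PC3 sensitive replicate 1). With the replicate block, 11 genes rose and 8 fell in DU145, 12 rose and 5 fell in PC3, and 19 differed between the lines, against 11, 8, 9, 5 and 17 without it. FBN1, PXDN and LOX then passed in PC3. Shares over all genes tested were not computed for these alternative fits. The sources used here do not say whether libraries of the same number were handled together. Their deviations from the group means correlated at 0.323 in DU145 and 0.0861 in PC3. Variation was thus partly shared by number in DU145, and the main fit left the number out. No gene past the threshold changed direction in any alternative run. Genes that had not passed did. Among changes within a line and their differences, values newly past the threshold numbered 10 without a low count filter, 5 with the block and 3 with DESeq2. Between the sensitive cells, genes lower in PC3 numbered 7 in the main fit. They numbered 10 with the block, 9 without a low count filter and 8 with DESeq2. Genes higher in PC3 numbered 20 in the main fit and with the block and DESeq2, and 21 without the filter. With shared reads subtracted, COL6A3 was at 0.70 in DU145 and at -0.75 for the difference between the lines. LOX was at 0.01 in DU145 fitted alone. The LOXL2 difference was 0.01 without a low count filter and 0.04 with 1 CPM in 4 libraries. Leaving out 1 library at a time gave the following ranges for genes that had not passed. In DU145 the log2 fold changes ran from -1.47 to 0.04 for LAMA4, -0.49 to 0.03 for LAMB1, -0.16 to 0.41 for COL1A1, -0.69 to 0.35 for COL1A2, -0.26 to 0.10 for COL4A5, -0.12 to 0.23 for COL12A1, -0.75 to 1.14 for SPARC, -0.37 to 0.24 for AGRN, -0.92 to 1.51 for VCAN, -0.63 to 0.04 for PXDN, -0.62 to 0.58 for LOX and -0.02 to 0.20 for LOXL2. In PC3 they ran from -0.93 to 0.35 for NID2, -0.16 to 0.21 for LAMB2, -0.31 to 0.19 for COL1A1, -0.32 to 0.59 for COL1A2, -0.11 to 0.18 for COL6A2, -0.30 to 0.15 for COL6A3, -0.01 to 0.84 for FN1, -1.95 to 0.13 for SPARC, -0.34 to 0.45 for HSPG2, -0.16 to 0.17 for TNC, -0.07 to 1.23 for VCAN and -0.11 to 0.22 for LOXL2. The differences between the lines ran from -0.48 to 0.10 for COL1A1, -0.27 to 0.77 for COL1A2, -0.84 to 0.19 for COL4A6, -0.27 to 0.02 for COL6A2, -0.17 to 0.28 for COL6A3, -0.06 to 1.28 for COL17A1, -2.46 to 0.18 for SPARC, -0.45 to 0.16 for AGRN, -0.78 to 1.64 for VCAN and -0.19 to 0.14 for LOXL2. The causes were not tested. With 2 libraries per group, small changes cannot be told from the spread between libraries, and genes under about 1 CPM rest on few counts.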

Other observations

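Further matrix genes, in lists chosen with earlier results known, were counted in the same fit. Of 26 tested matrix glycoproteins and proteoglycans outside the 37 genes, 0 rose and 14 fell in DU145 resistant cells, and 12 rose and 4 fell in PC3 resistant cells, with shares over all genes tested of 12.4% and 15.4% in DU145 and 18.6% and 17.0% in PC3. FBLN1, fibulin 1, had 13.1 and 14.3 CPM in DU145 resistant libraries, against 168 and 149 CPM in DU145 sensitive libraries (log2 fold change -3.53, adjusted p = 2.2e-07). In PC3 it rose slightly, with 88.16 and 90.42 CPM in resistant libraries, against 63.45 and 59.68 CPM in sensitive libraries (0.44, adjusted p = 0.0225). NPNT, nephronectin, a basement membrane ligand of integrins, had 0.292 and 0.317 CPM in DU145 resistant libraries, against 7.82 and 8.05 CPM in DU145 sensitive libraries (-4.68, adjusted p = 3.8e-06), and it rose in PC3 (1.42, adjusted p = 0.0011). EFEMP1, fibulin 3, had 51.5 and 31.3 CPM in PC3 resistant libraries, against 0.782 and 0.473 CPM in PC3 sensitive libraries (5.92, adjusted p = 3.7e-07), whereas all 4 DU145 libraries lay between 83.3 and 95.4 CPM.

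Of 24 tested laminins and collagens outside the 37, 3 rose and 8 fell in DU145, and 9 rose and 3 fell in PC3. Of 24 tested genes of collagen synthesis and processing, 4 rose and 7 fell in DU145, and 5 rose and 8 fell in PC3. PLOD2, a lysyl hydroxylase of collagen, had 119 and 104 CPM in PC3 resistant libraries, against 265 and 338 CPM in PC3 sensitive libraries (-1.54, adjusted p = 0.00022). Of 9 matrix receptors other than integrins, 3 rose and 3 fell in DU145, and 1 rose and 0 fell in PC3. Beside these counts, the shares over all genes tested were 12.4% higher and 15.4% lower in DU145, and 18.6% and 17.0% in PC3. CD44, a hyaluronan receptor, had 642 and 754 CPM in DU145 resistant libraries, against 147 and 213 CPM in DU145 sensitive libraries (1.96, adjusted p = 3.1e-05). Adjusted p-values are from the edgeR quasi-likelihood test, over all genes tested.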
